A study of Mus musculus with 194 samples.

Results

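L1210 cells were grouped by how strongly they expressed 5 genes of mitosis, the groups being chosen by those measured values, and the cells at the top of that order were compared with the cells at the bottom. L1210 is a mouse lymphocytic leukaemia line derived from a DBA strain, grown here in a microfluidic device that traps single cells and follows their divisions by imaging, so that each sequenced cell comes with its time since division, its sister and its cousins. The series holds 194 single-cell libraries, 88 of L1210 and the others of primary mouse CD8+ T cells, which were activated with anti-CD3 and anti-CD28 before loading and cultured in the device with IL2. Of the 88 L1210 libraries, 2 were labelled doublets and 5 held fewer than 1000 genes above 0 TPM (a transcript's share of all transcripts, corrected for its length), which left 81 cells from 26 lineages. For each cell the mitotic score was the mean of ln(TPM + 1) over Aurka, Plk1, Cdc20, Ccnb1 and Cenpf. The 27 cells of highest score are called high cells, the 27 of lowest score low cells, and the 27 between them middle cells. Neither group is a treatment or a genotype. All cells are of 1 line, and the labels name no separate cultures, so a p-value here measures the spread between these cells and lineages only.

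Progress into mitosis is driven by cyclin B bound to Cdk1, and the kinases Aurka and Plk1 help to build the spindle. Cdc20 switches on the anaphase-promoting complex, which marks cyclin B (Ccnb1) for destruction once chromosomes are attached, and Cenpf sits at kinetochores, the protein plates that join chromosomes to the spindle. Transcripts of this programme build up in G2, and many of their promoters carry CCAAT boxes and a short element called CHR, with the letters TTTGAA in its commonest form.

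The promoters of the 5 score genes are shown because the comparison turns on them, followed by 4 genes that were higher in the high cells, 1 such gene whose promoter holds neither motif (Nusap1) and 1 gene (Ung) that was lower once the number of detected genes was accounted for. Each stretch runs from 100 bases before to 40 bases after the RefSeq start on GRCm38.p6, written 5′ to 3′ on the gene's strand, with TTTGAA (or TTCAAA, its other strand) and CCAAT (or ATTGG) in capitals. The stretches lie at chr2:172370531-172370670 (minus strand) for Aurka, chr7:122159335-122159474 (plus strand) for Plk1, chr4:118437304-118437443 (minus strand) for Cdc20, chr13:100786447-100786586 (minus strand) for Ccnb1 and chr1:189688047-189688186 (minus strand) for Cenpf. Those of the other genes lie at chr2:129297173-129297312 (minus strand) for Ckap2l, chr9:61946760-61946899 (minus strand) for Kif23, chr2:164769829-164769968 (plus strand) for Ube2c, chr11:99024150-99024289 (minus strand) for Top2a, chr2:119618198-119618337 (plus strand) for Nusap1 and chr5:114130335-114130474 (plus strand) for Ung.
Aurka: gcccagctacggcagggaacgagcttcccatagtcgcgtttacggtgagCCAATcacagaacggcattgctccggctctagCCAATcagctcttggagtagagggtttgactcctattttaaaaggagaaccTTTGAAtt
Plk1: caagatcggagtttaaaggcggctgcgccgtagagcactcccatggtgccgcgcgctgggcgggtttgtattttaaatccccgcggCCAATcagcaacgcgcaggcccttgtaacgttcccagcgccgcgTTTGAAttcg
Cdc20: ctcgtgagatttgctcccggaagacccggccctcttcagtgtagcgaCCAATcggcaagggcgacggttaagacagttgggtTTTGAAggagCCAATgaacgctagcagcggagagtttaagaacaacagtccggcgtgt
Ccnb1: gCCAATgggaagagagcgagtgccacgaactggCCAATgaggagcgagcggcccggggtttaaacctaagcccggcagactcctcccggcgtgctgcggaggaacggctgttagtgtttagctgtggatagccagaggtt
Cenpf: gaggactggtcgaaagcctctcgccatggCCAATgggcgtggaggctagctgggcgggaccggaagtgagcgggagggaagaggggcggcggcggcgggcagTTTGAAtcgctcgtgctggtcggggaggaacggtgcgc
Ckap2l: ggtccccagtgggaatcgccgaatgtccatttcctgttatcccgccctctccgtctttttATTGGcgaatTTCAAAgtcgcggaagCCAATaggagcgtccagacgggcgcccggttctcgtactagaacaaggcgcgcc
Kif23: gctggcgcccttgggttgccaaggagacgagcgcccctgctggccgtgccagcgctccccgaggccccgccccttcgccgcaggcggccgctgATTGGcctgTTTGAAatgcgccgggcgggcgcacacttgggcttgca
Ube2c: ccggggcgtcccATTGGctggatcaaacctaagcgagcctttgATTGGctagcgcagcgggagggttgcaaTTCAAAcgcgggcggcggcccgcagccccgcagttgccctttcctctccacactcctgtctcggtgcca
Top2a: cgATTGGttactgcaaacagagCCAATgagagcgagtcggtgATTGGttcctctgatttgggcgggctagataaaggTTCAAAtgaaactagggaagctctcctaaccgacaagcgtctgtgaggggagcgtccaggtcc
Nusap1: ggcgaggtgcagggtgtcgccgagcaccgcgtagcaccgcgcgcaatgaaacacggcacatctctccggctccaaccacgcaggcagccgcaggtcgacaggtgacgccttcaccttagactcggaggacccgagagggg
Ung: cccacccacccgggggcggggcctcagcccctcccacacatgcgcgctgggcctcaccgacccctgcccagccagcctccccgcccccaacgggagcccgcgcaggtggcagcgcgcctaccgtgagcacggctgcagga

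All 5 score genes had at least 1 CCAAT in the window of 250 bases before to 50 after the start, and 4 of 5 had TTTGAA, the exception being Ccnb1. Cdc20 carried TTTGAA 18 bases before its start and Cenpf 3 bases after it, while in Aurka and Plk1 it began 33 and 31 bases after the annotated start. Over all 32851 RefSeq windows of this length, TTTGAA stood in 17.9% and CCAAT in 37.4%. A match of letters is a description of the window and not a binding site. No fixed rule picked the genes printed beside the score genes, so they do not show how common the motifs are.

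The values that chose the groups are given here as a description, with no test. The high cells scored from 4.50 to 5.38 (median 4.81) and the low cells from 0 to 3.60 (median 3.11). The cells on either side of the cuts were close, 3.60 against 3.63 at the lower cut and 4.4978 against 4.5025 at the upper one. Aurka was above 0 in all 27 high cells, at 46.5 to 227.9 TPM (median 113.3), and in 13 of 27 low cells, where its median was 0 and its highest value 54.3 TPM. Plk1 had a median of 239.4 TPM in the high cells and 27 in the low cells, and was above 0 in 27 and 19 cells. Cdc20 differed least in detection, with medians of 392.5 and 178.9 TPM and 27 and 25 cells above 0. Ccnb1 had medians of 285.1 and 74.2 TPM, with 27 and 24 cells above 0. Cenpf, a long transcript at a low level per length, had medians of 11.6 and 0.65 TPM, with 27 and 17 cells above 0. The groups overlapped in each gene. For Ccnb1, 1 high cell lay at or under the highest low cell, for Aurka 2, for Plk1 5, for Cdc20 26 and for Cenpf 27.

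The libraries of the high cells held more detected genes on average, but the difference did not pass correction. The part that library quality had in it was not tested. The high cells had 7040 to 10452 genes above 0 TPM (mean 8973 ± 879 SD, n = 27). The low cells had 1610 to 9619 (7161 ± 2147, n = 27), a difference of 1812 genes. A 2-sided permutation test over 26 lineages gave p = 0.0288 (adjusted p = 0.0576 over 4 tests of this kind). It reassigned lineage means, so differences between cells of 1 lineage entered the 1812 genes but not the p. The test lost p = 0.05 when any 1 of 9 lineages was left out, with p up to 0.103. No high cell and 7 low cells had fewer than 6000 genes. Rn45s, a ribosomal RNA precursor, took 11.4% to 26.6% of the TPM of a high cell and 19.7% to 79.3% of that of a low cell. The medians were 19.9% and 23.5%, and L1210_8 (79.3%) and L1210_15 (55.5%) were the highest low cells. The label of the line was checked by its markers. Cd79a, part of the B cell receptor, was above 0 in all 27 high and 26 of 27 low cells. Cd3e and Cd3g, parts of the T cell receptor complex, were the only 2 of 14 T-lineage markers at 0 in all cells. The summed level of 16 B-lineage markers ran from 1020 to 3888 TPM (median 2794) in high cells and from 666 to 5805 (median 3109) in low cells. Of 14 T-lineage markers the summed level had medians of 37.5 and 35.9 TPM and reached 96.4 and 119.4 TPM. Of 11 myeloid markers it had medians of 22.97 and 22.64 TPM and reached 54.7 and 197.3 TPM. Only Elane, S100a8 and S100a9 among these 11 were at 0 in all cells.

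**Figure D1:**
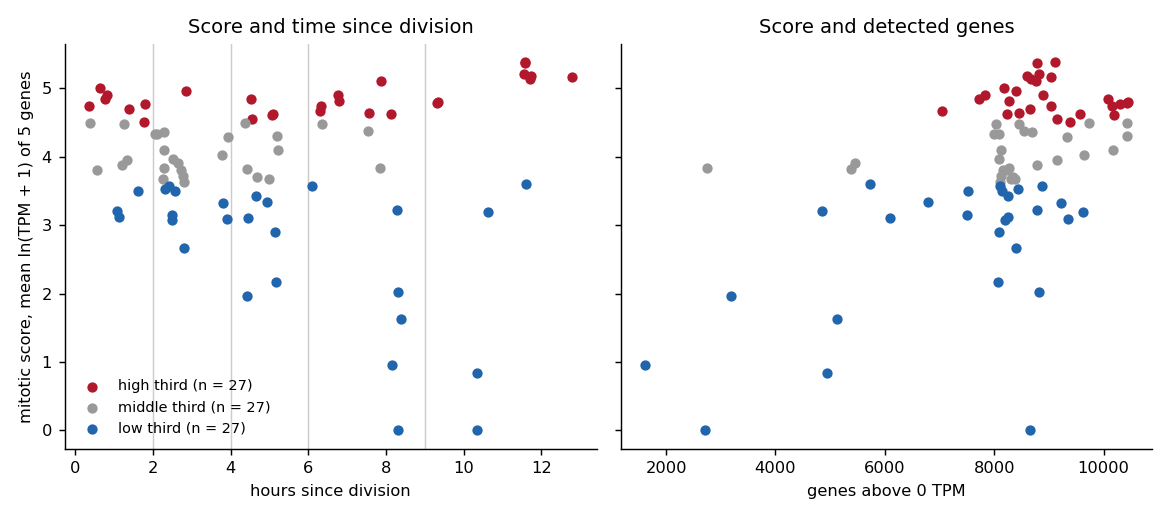
Mitotic score (mean ln(TPM + 1) of 5 genes) of each of the 81 cells against hours since division (left, grey lines at 2, 4, 6 and 9 h) and against genes above 0 TPM (right), coloured by group. High cells stand at both ends of the time axis, and all cells under 4000 genes are low or middle cells.

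Most, but not all, tested genes of the mitotic machinery were higher in the high cells. Of 142 names in 5 lists of this machinery 137 were in the table and all of those passed the filter on low values, and 98 were higher and none lower. With detected genes as a covariate, 43 of the 137 were higher. All other genes were compared by limma on ln(TPM + 1) with the lineage as a random block, over 10529 genes and without the score genes. In all, 927 genes were higher (8.8% of those tested) and 0 were lower (0%), with 3322 and 22 genes at an unadjusted p under 0.05. Without the cell L1210_15 (1610 detected genes) the count was 489, without the lineage of L1210_8 440 and without the lineage of L1210_3, which holds L1210_15, 443. The lineages of L1210_4 and L1210_55 moved it too, to 614 and 570. The median difference of all genes was 0.41 on the ln scale, that is, most genes lay higher in the high cells, whose libraries detected more genes. With the number of detected genes as a covariate the median was -0.02, 67 genes were higher (0.636%) and 6 lower (0.057%). All 67 were among the 927, and 43 of the 67 stood in the 5 lists. In the 77 cells with 4000 or more genes, whose groups were cut anew, 286 genes were higher (2.69%) and 2 lower (0.0188%). Other genes of the same libraries are compared here, so the result describes what varies along with the 5 score genes. The share that the difference in detected genes has in the 927 was not tested beyond these fits.

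Of 40 spindle motors and microtubule-associated proteins tested, 35 were higher, and 20 with detected genes as a covariate, with a median difference of 1.51 and 1.18. Ckap2l, which binds spindle microtubules, was above 0 in all 27 high cells at 12.8 to 89.6 TPM (median 23.7) and in 10 of 27 low cells (median 0, highest 21.3). Only 1 low cell reached the range of the high cells. The difference was 2.55 (SE 0.27, limma adjusted p = 3.97e-11), and 2.47 (SE 0.29, adjusted p = 4.36e-09) with the covariate. Prc1, which bundles the midzone microtubules between separating chromosomes, had the largest difference of the list, 2.80 (SE 0.38), with medians of 133.8 and 4.60 TPM. Nusap1, which stabilises spindle microtubules, was above 0 in 26 high and 8 low cells, with a difference of 2.60 (SE 0.34). Kif23, a motor of the midzone, had medians of 30.8 and 2.19 TPM, and Kif4, a motor of chromosome arms, 17.6 and 0 TPM. Kifc1, a minus-end motor, differed by 2.59 (SE 0.35). It has a near-identical copy, Kifc5b (difference 1.82), and reads of the pair may have been split between them.

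The spindle checkpoint and kinetochore list had 28 of 39 genes higher, and 11 with the covariate, with none lower in either fit. Ndc80 and Nuf2 form the arm of the kinetochore that grips microtubules. Ndc80 was above 0 in 26 high and 12 low cells, with medians of 36.3 and 0 TPM and a difference of 2.21 (SE 0.38, limma adjusted p = 2.99e-05). Nuf2 had medians of 40.2 and 0 TPM and kept its size with the covariate, 1.96 without and 2.00 with it. Ttk, the kinase that starts the checkpoint, had a difference of 1.78 (SE 0.32). Bub1b and Mad2l1, which hold back Cdc20, were higher by 1.34 and 0.97 but did not pass with the covariate (adjusted p = 0.212 and 0.234). The 4 genes of the chromosomal passenger complex were all higher, and Incenp (2.24) and Aurkb (1.92) passed with the covariate as well.

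Among cyclins, Cdk1 control and the anaphase-promoting complex, 15 of 31 were higher and 7 with the covariate. Cdk1, the mitotic kinase itself, was above 0 in 27 high cells at 25.4 to 266.6 TPM (median 141.2) and in 17 low cells (median 25.2, highest 180.2). The groups overlapped, and 10 low cells had none. Its difference was 2.59 (SE 0.38, limma adjusted p = 9.80e-07). Ube2c, the enzyme that passes ubiquitin to targets of the complex, ran from 239 to 1265 TPM in the high cells and up to 331.6 in the low cells, with a difference of 2.11 (SE 0.30). Cdc25b and Cdc25c, phosphatases that activate Cdk1, were higher by 2.06 and 2.02, and Ccna2 by 1.68. Ccnb2, a partner of Cdk1 close to Ccnb1, did not pass the test (0.81, SE 0.30, adjusted p = 0.0634), with medians of 105.7 and 86.2 TPM. Of 12 subunits of the complex in the list, Cdc23 (1.01) and Anapc1 (0.81) were higher and neither passed with the covariate, and the others had differences of -0.02 to 0.76. Condensin, cohesin and mitotic chromosome proteins had 16 of 23 higher and 3 with the covariate, which were Top2a, Cdca2 and Ncapg. Top2a, which untangles sister DNA, differed by 2.37 (SE 0.36), with medians of 134.2 and 8.23 TPM.

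**Figure D2:**
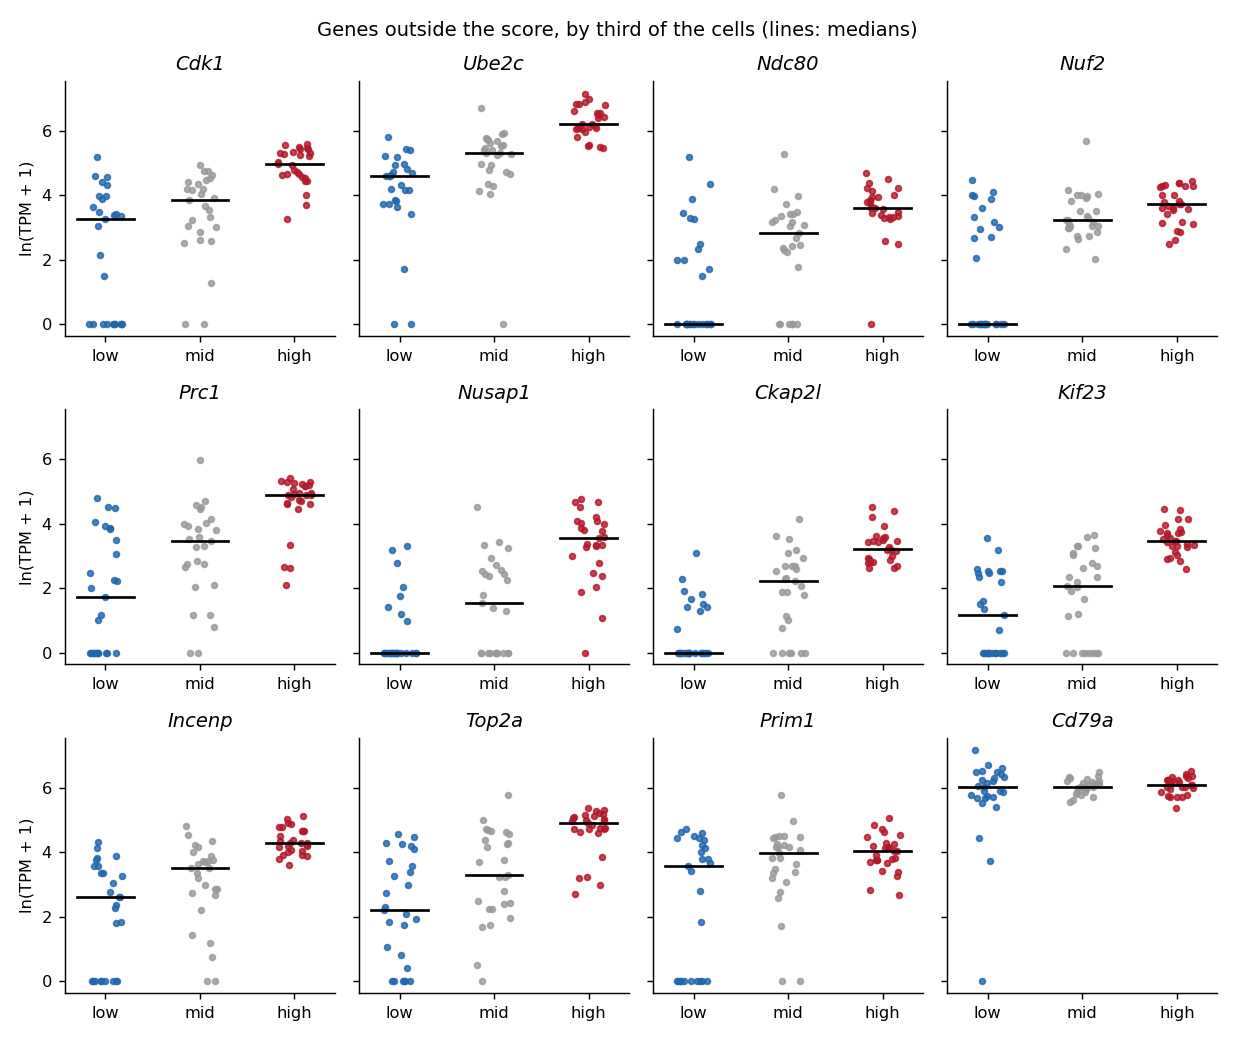
ln(TPM + 1) of 12 genes outside the score in each of the 81 cells, by low, middle and high cells (27 each), with medians as lines. The 10 mitotic genes lie higher in the high cells, Prim1 differs less, and Cd79a has medians of 443.9 and 406.7 TPM in high and low cells.

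Of 64 genes of G1/S and DNA replication, 13 were higher, a share above the 8.8% of all genes. Their median difference was 0.56 where all genes had 0.41. With the covariate none was higher and 1, Ung, was lower. Prim1, a primase subunit, had medians of 55.9 and 34.8 TPM and a difference of 1.41 (SE 0.39), which was 1.202 with the covariate (adjusted p = 0.240). Mcm2, a subunit of the replicative helicase, went from 0.93 to 0.11. Ung, which removes uracil from DNA, was above 0 in 20 high cells (median 15.5 TPM) and 22 low cells (median 41.9 TPM), with a difference of -0.93 (SE 0.41, adjusted p = 0.114) and of -1.67 (SE 0.42, adjusted p = 0.0231) with the covariate. The list of G1 cyclins, Cdk kinases, Cdk inhibitors and Rb-E2F genes had 2 of 25 higher, Cdkn3 (1.29) and Cdkn2c (1.08), and none with the covariate. That share was near the 8.8% of all genes, so the count says nothing particular about the list. Of the D cyclins, which act in G1, Ccnd3 had medians of 404.1 and 407.5 TPM and Ccnd2 of 63.03 and 69.14 TPM.

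Late cell cycle transcription factors had 2 of 12 higher, Foxm1 (1.16) and Lin9 (1.30). Of 17 tubulins 5 were higher, among them Tubb4b, with medians of 951.1 and 458.8 TPM. Replication histones had 3 of 46 higher, of which Hist1h4d had medians of 164.6 and 16.7 TPM. These transcripts lack a long tail of adenines, and near-identical copies share reads. Ribosome biogenesis had 2 of 35 higher, sterol synthesis 3 of 21, p53 targets 1 of 18 (Mdm4, 1.12) and immediate early genes 1 of 18 (Klf6, 1.42). Against the 8.8% of all genes that were higher, the shares of histones, ribosome biogenesis, p53 targets and immediate early genes were lower, and these counts say nothing particular about the lists. The shares of late transcription factors, tubulins and sterol synthesis were above it, on 2, 5 and 3 genes. Of 16 glycolysis genes none was called, the largest differences being those of Pfkm (0.70, SE 0.37) and Pfkl (0.68, SE 0.29). None of the 15 B-lineage, 5 T-lineage and 4 myeloid markers tested was called. No gene of the lists in this paragraph was called with the covariate.

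**Figure D3:**
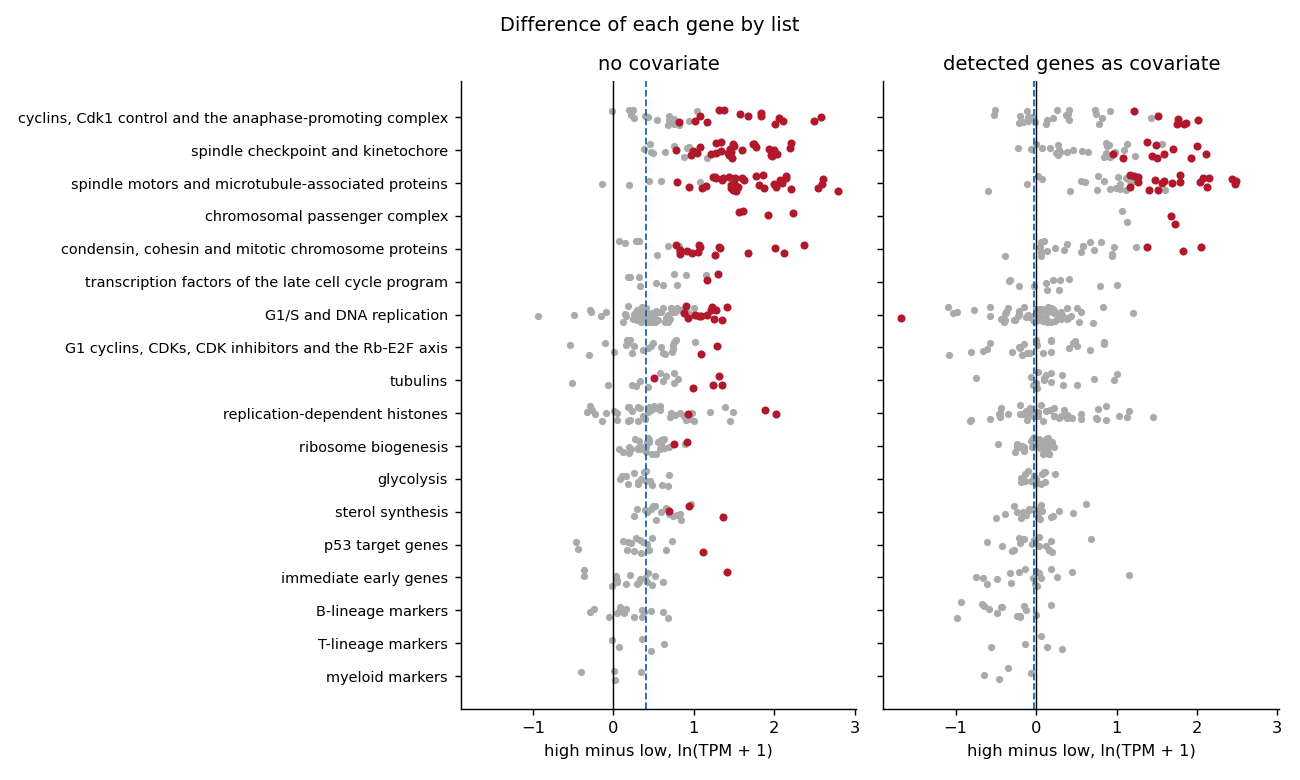
Difference of high minus low cells in ln(TPM + 1) for each tested gene of 18 lists, without a covariate (left) and with detected genes as a covariate (right). Red points passed an adjusted p of 0.05, and the dashed line marks the median of all genes tested, 0.41 on the left and -0.02 on the right. Spindle and kinetochore genes keep most red points on the right.

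Outside the lists, the 10 genes of largest positive difference were Arhgef39 (2.46), Fam83d (2.44), Hyls1 (2.22), Pif1 (2.19), Miip (2.16), Zfp386 (2.00), Mir703 (1.96), Depdc1a (1.95), Troap (1.94) and 4930579G24Rik (1.94). Fam83d, which binds the spindle, was above 0 in 22 high and 4 low cells, and Hyls1, a centriole protein, in 24 and 4. Pif1, a DNA helicase, had medians of 19.9 and 0 TPM. All but Zfp386 and Mir703 also passed with the covariate. The 6 genes lower with the covariate were Ung, Egln1, Zdhhc24, Fam20b, Tmem91 and H2-Oa, named after their values were seen. Egln1, an oxygen-sensing hydroxylase, had medians of 6.02 and 11.6 TPM, and H2-Oa, a class II antigen presentation gene, was above 0 in 2 high and 8 low cells. None of the 6 passed without the covariate. Their differences there ran from -0.15 to -0.93.

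TTTGAA stood in 37 of 57 promoter windows (64.9%) of the genes higher with the covariate, for 51 of 67 genes that had a window, and CCAAT in 42 (73.7%). Windows of all tested genes held them in 12.3% and 38.6%. Among all 927 genes higher without the covariate, of which 696 had a window, the shares were 19.7% and 49.1%. Both motifs stood together in 12.2% of windows of the 927 genes and 54.4% of those of the 67. Over all tested genes that share was 5.11%. Spindle motor genes had TTTGAA in 64.3% of windows, kinetochore genes in 39.02% and G1/S genes in 16.9%. None of the 7 windows of the genes lower with the covariate held TTTGAA. These shares are counts of letters in the windows, and several windows can belong to 1 gene.

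The time since division of the groups overlapped widely. High cells had divided 0.354 to 12.8 h before (mean 6.26 ± 4.04 h SD, n = 27) and low cells 1.08 to 11.6 h before (5.40 ± 3.19 h, n = 27). The difference of 0.854 h was smaller than either spread. A 2-sided permutation test over 26 lineages, which reassigned lineage mean hours, gave p = 0.539 (adjusted p = 0.539). The groups filled the time axis differently. Under 2 h there were 7 high and 3 low cells, at 2 to 4 h 1 and 8, at 4 to 6 h 4 and 6, at 6 to 9 h 7 and 6, and over 9 h 8 and 4. Middle cells were most often at 2 to 4 h, with 13 of 22 cells, and none was over 9 h. The mean score of lineages over the 5 bands did not pass the permutation test of the Kruskal-Wallis statistic (4.61, p = 0.344, adjusted p = 0.458, 26 lineages). Median lineage scores were 4.37 under 2 h, 3.73 at 2 to 4 h and 4.79 over 9 h, and over 9 h lineages ranged from 0.420 to 5.29.

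The high cells held both cells soon after division and cells long after it. Ccnb1 had a median of 208.9 TPM in the 7 high cells under 2 h and of 438.9 TPM in the 8 over 9 h, with ranges of 169.6 to 298.0 and 222.3 to 537.1 that overlapped. Aurka had medians of 97.4 and 172.2 TPM and Cdc20 of 412.3 and 466.6 TPM. In a comparison chosen after seeing the data, limma called 0 of 10534 genes between these 2 sets of high cells (442 higher and 118 lower over 9 h at an unadjusted p under 0.05). With 7 and 8 cells, several of them sisters or cousins, this does not show that they were alike.

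Sisters were more often in the same group than reassigned cells, but the excess did not pass correction. Of 38 sister pairs, 19 stood in the same group (8 high, 6 low and 5 middle) where 12.4 were expected when cells were reassigned over the pedigree (2-sided permutation test, p = 0.0261, adjusted p = 0.0576). When cells were reassigned only within their time band, 14.6 were expected (p = 0.160). Only 2 pairs joined a high with a low cell, and in both the low cell had fewer detected genes. Cell L1210_15 had 1610 genes against 8243 in its sister L1210_3, and L1210_87 had 5732 against 8778 in L1210_77. Without L1210_15, 18 pairs matched (p = 0.0531).

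High cells came from 15 of the 26 lineages and low cells from 16, with 5 lineages holding both. Of the lineages with 2 or more cells, 3 were wholly high, all sister pairs between 9.33 and 11.7 h after division, and 3 wholly low. The wholly low lineage of L1210_54 had 4 cells about 8.3 h after division. Its scores were 0 (L1210_54), 3.22 (L1210_65), 2.02 (L1210_76) and 1.62 (L1210_86). L1210_54 detected 8648 genes, yet all 5 score genes, Cdk1, Top2a and Mki67 were at 0 in it, while Ccnb2 stood at 39.4 and Cd79a at 824.5 TPM. Cdk1 was at 98.8 TPM in L1210_65 and 25.2 TPM in L1210_76, within the range of low cells. The fourth, L1210_86, had 5125 genes. In the wholly low pair of L1210_8 and L1210_84, at 10.3 h, L1210_8 had 2717 genes with 79.3% of its TPM in Rn45s, and L1210_84 had 4950 genes. The third, of L1210_46, had 3 cells with 8065 to 8111 genes and scores of 2.17 to 3.57.

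**Figure D4:**
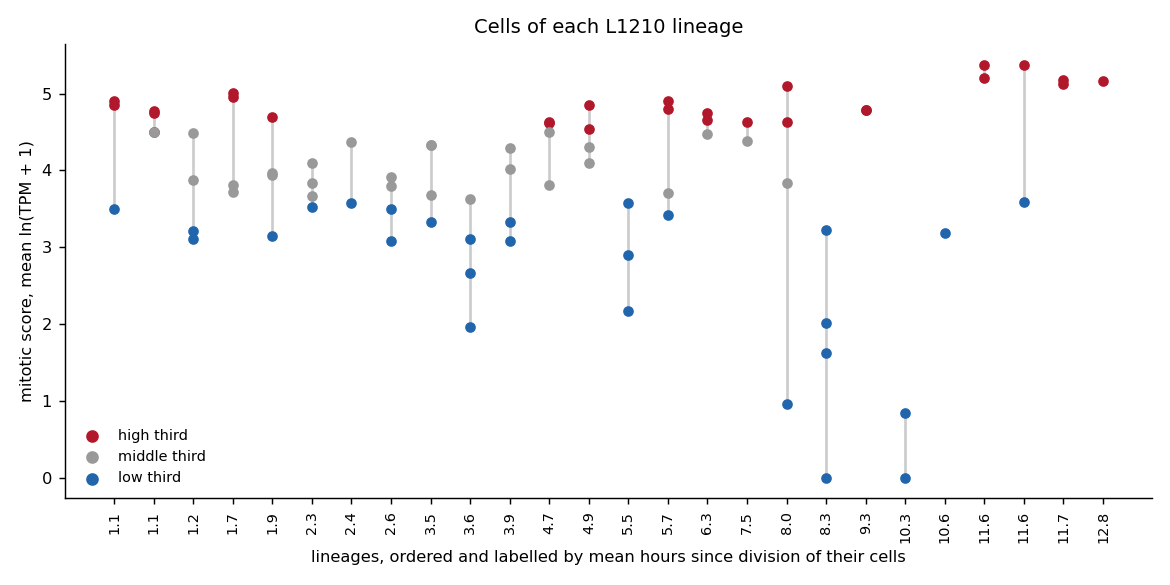
Mitotic score of each cell in the 26 lineages, which are ordered and labelled by the mean hours since division of their cells. Grey lines join cells of 1 lineage, and colours mark low, middle and high cells. From 9.3 h on, 3 pairs are wholly high and 1 pair wholly low.

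A cell whose own values put it in a group cannot test those values, so 1 sister of each retained pair was examined by the group of the other. In the 38 pairs the lower-numbered cell gave the group and only its partner gave values, with 12 partners of high, 13 of middle and 13 of low cells, and with the 5 score genes included. Limma called 4 of 10534 genes higher in partners of high cells (0.038%) and 0 lower (0%), with 665 and 92 at an unadjusted p under 0.05. The 4 were Nusap1 (2.53, adjusted p = 0.0365), Ttk (2.16, adjusted p = 0.0365), Hmmr (2.13, adjusted p = 0.0365) and Cenpl (2.16, adjusted p = 0.0498). Nusap1 was above 0 in 11 of 12 partners of high cells (median 23.2 TPM) and in 3 of 13 partners of low cells (median 0). Ttk was above 0 in 10 of 12 and 3 of 13, and at 2.93 TPM or less in the partners of low cells. Hmmr, a spindle pole protein, had medians of 62.2 and 4.84 TPM, and Cenpl, a centromere protein, 27.88 and 1.2 TPM. All 4 are in the mitotic lists and higher in the high cells themselves. That is no separate evidence, because 8 pairs were wholly high and 6 wholly low, so many libraries serve in both comparisons. Next by p were Cdadc1 (1.96), Ckap2l (2.24), Tagap (1.67), Tbl2 (1.64), Scfd2 (2.00) and Arhgef39 (2.16), with adjusted p from 0.0719 to 0.202, and none passed.

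The score genes of partners all lay higher where the sister was high, by 0.68 (Cdc20) to 1.85 (Plk1), and none passed (adjusted p from 0.218 to 0.706). Of the 137 genes of the 5 mitotic lists 124 had a positive difference, with a median of 0.80 where all genes had 0.16. With the higher-numbered sister as the index cell, no gene was called (623 higher and 68 lower at an unadjusted p under 0.05), and 126 of 137 were positive, with a median of 0.74 against 0.21. With the partner's detected genes as a covariate no gene was called either, with 334 higher and 829 lower at an unadjusted p under 0.05. The 2 choices of index cell use the same pairs and are not independent. Sisters have nearly the same time since division, which no partner fit took into account.

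**Figure D5:**
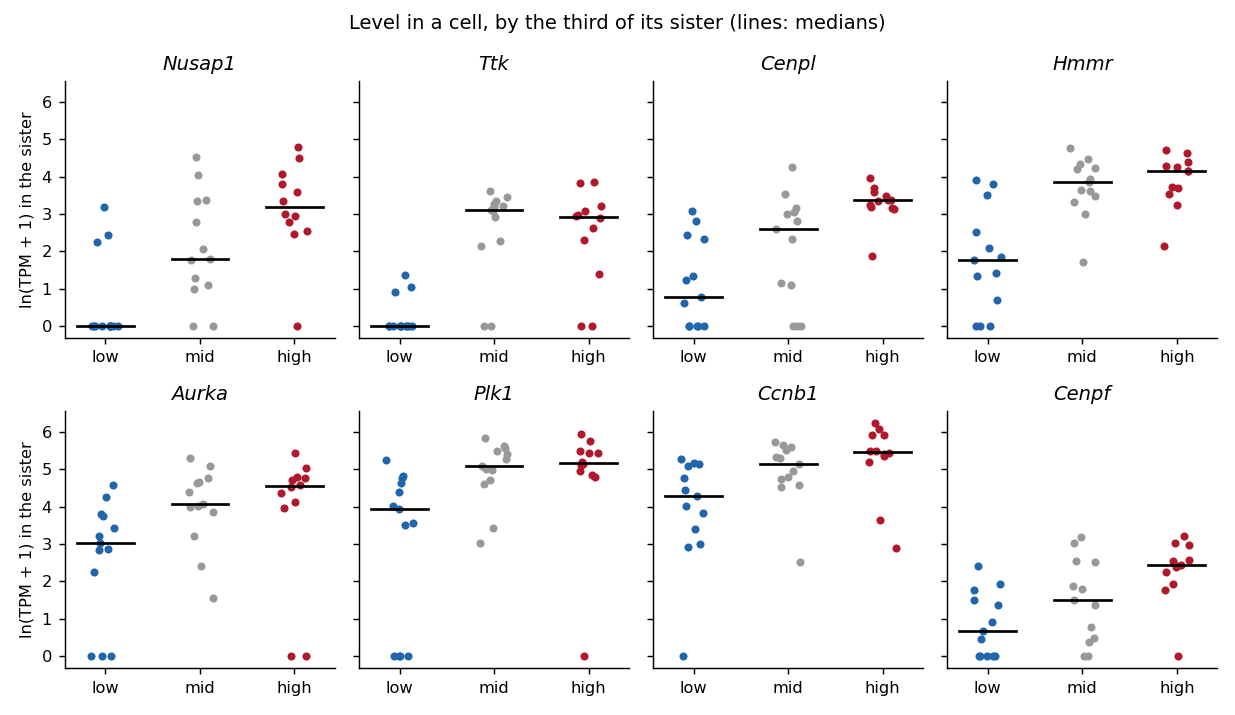
ln(TPM + 1) of the 4 genes called (top) and of 4 score genes (bottom) in the partner cells, by the group of the index sister (13 low, 13 middle, 12 high), with medians as lines. Partners of low cells hold more cells at 0, and the groups overlap in every gene shown.

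CD8+ T cells gave a comparison by the same rule, with 32 high and 32 low cells of 97. Of 9153 genes tested in both cell types, 0 differed in their high minus low difference (0% in each direction), with 498 and 209 at an unadjusted p under 0.05. The lowest p belonged to Zfp952, with a difference of 1.43 in L1210 and -1.04 in CD8 cells (adjusted p of the interaction 0.0969). Ikbke, Rpl36al, Pigf and Mapkapk5 followed, at an adjusted p of 0.421. No gene was thus shown to follow the score in L1210 cells otherwise than in CD8 cells, which does not show that the cell types are alike.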

How the data were processed

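Single-cell libraries were made by Smart-Seq2 from cells released from the device. Per the labels' processing notes the tools were bcl2fastq, TopHat2, RSEM 1.2.3 and GenomeStudio, with the mm10 build. The values the authors deposited are TPM per gene, which keep no read depth. The number of genes above 0 TPM (1610 to 10452 per retained L1210 cell) was used instead, and does not measure read depth itself. The paper's quality metrics for each library were not used. No interval for counting error can be given. The table held 23416 genes after 4 rows with repeated names were dropped.

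Values were taken as ln(TPM + 1). Genes over 1 on that scale in more than 10% of the 81 cells were kept. High and low cells were compared by limma 3.58.1 in R 4.3.3 with 3 groups sharing the spread, lineage as a random block (correlation 0.0938), and Benjamini-Hochberg adjustment over all genes tested without the 5 score genes, at 0.05. Lineages joined sisters and cousins that name each other. Permutation tests used 100000 resamples (10000 where a lineage was left out). On simulated shifts of 1 and 2 on the ln scale, the comparison of high and low cells recovered 44% and 98% of changed genes over 10529 genes. That of partner cells recovered 16% and 73% over 10534. Group labels were shuffled over the cells, and the shift was added to every cell labelled high, also where a gene was at 0. The real difference in detected genes and the real spread of groups over lineages were thus not simulated. Adding 1 to the TPM makes differences of low genes smaller. Cells at 0 also enter these differences, and the low cells had fewer detected genes on average. Which of these weighs more was not tested.

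The members, the gene lists and the tests were chosen with earlier results of these data known. Genes named were the score genes, up to 6 called members per list (or 2 by size where fewer than 2 passed), the 10 largest differences outside the lists, the 10 and 5 of lowest p in the partner and CD8 comparisons, and markers. Others named beyond the rule (Ccnb2, Ccna2, Bub1b, Mad2l1, Mcm2, Ccnd2, Ccnd3 and anaphase-promoting complex subunits, Kifc5b, and the genes lower with the covariate) were picked after seeing values. A gene that the rule names is not reported here.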

Additional observations from a re-analysis of the deposited data

Results flagged for a closer look

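Among 24 groups of 4 to 10 cells tested for a cell that stands apart in mitotic score (by Dixon's ratio at the 95% level, within lineages and within time bands of the 3 groups), 1 was found. In the lineage of L1210_53, cell L1210_85 scored 3.82 (gap over range 0.841, n = 4), below its 3 relatives. Its library held 5376 genes above 0 TPM, against 9568 to 10200 in the relatives, and the part of this in the score was not tested. Chance flags about 1 in 20 such groups.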

How the results depend on the processing

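The count of genes higher in the high cells (927) went down to 67 with detected genes as a covariate, 50 with detected genes and time bands, 54 in cells of 2 to 9 h, 286 and 489 with at least 4000 or 2000 detected genes, 343 over lineage means, 604 with a pseudocount of 10 and 596 with Plk1 out of the score. L1210_15 is the cell that the minimum of 2000 removes, so leaving it out gave 489 too. The count was also lower at 660 without Rn45s in the TPM, 681 with no filter on low values and 832 without the middle cells. The count went up to 1927 with time bands, 1627 for the top against all other cells, cut at the median, 4818 for the score as a slope, and 1639, 1924 and 1841 with Aurka, Ccnb1 or Cenpf out of the score. It was also higher at 1293 with a pseudocount of 0.1, 1170 without the lineage block and 1149 with narrower top and bottom groups. With only genes over 1 in more than 50% of cells it was 1035, and with Cdc20 out of the score 1032. In fits chosen after seeing the data the count was 86 (at least 4000 detected genes, with the covariate) and 58 (without the lineage of L1210_54, with the covariate). The cause was not tested. Leaving out each lineage gave 440 to 1278, with 443, 614, 440 and 570 without the lineages of L1210_3, L1210_4, L1210_8 and L1210_55. Genes lower (0) became 1 with a pseudocount of 0.1 or no filter, 2 with a pseudocount of 10, 3 without the lineage block or with time bands, 6 and 7 with detected genes alone or with time bands, 2 with at least 4000 genes, 4 for the cut at the median, 15 for the slope, 5, 2 and 2 without Aurka, Ccnb1 or Cenpf, and 10 and 7 in the fits chosen later; leaving out lineages gave 0 to 1.

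Genes higher in partner cells (4) became 0 with the other index cell, a pseudocount of 0.1 or the partner's detected genes, 2 with a pseudocount of 10 and 251 for the index score as a slope, which also gave 3 lower. No alternative called a gene in the CD8 interaction. Sister pairs in the same group (19, unadjusted p = 0.0261) lost the threshold at 19 when reassigned within time bands, 17 without Plk1, 16 without Cenpf, 16 with at least 4000 genes and 18 without L1210_15. The detected gene difference ran from 1504 to 1958 and the hours difference from 0.599 to 1.80 with 1 lineage left out. Without the lineage of L1210_2, L1210_4, L1210_6, L1210_8, L1210_11, L1210_25, L1210_34, L1210_40 or L1210_55 the former lost p = 0.05. No named gene that was called turned its direction in the alternatives other than leaving out lineages, which were run for counts only. No paired analysis was possible because the replicate numbers that L1210 and CD8 cells share only count cells. Kinship within L1210, which the labels do give, entered as the lineage block and in the sister comparisons, and 5 lineages held both high and low cells. TPM limit what low genes can show.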

Other observations

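The 7 L1210 libraries left out of the groups had scores that no comparison uses. Of the 2 labelled doublets, L1210_48 scored 2.05 with 1823 genes and L1210_50 scored 3.17 with 5169 genes. Among the 5 libraries under 1000 genes, L1210_41, L1210_79 and L1210_88 scored 0, L1210_81 scored 1.41 and L1210_83 scored 1.44.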
